A study of Mus musculus with 4 samples.

Results

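The guanylate-binding proteins (GBPs) and the immunity-related GTPases (IRGs) are families of GTPases that mouse cells make after exposure to interferon. They were followed here through 10 genes, 6 of the GBP family (Gbp2, Gbp3, Gbp4, Gbp5, Gbp6 and Gbp7) and 4 of the IRG family (Igtp, Irgm1, Irgm2 and Iigp1), taken by name out of 48526 gene identifiers. Symbols came from matching the tables' Ensembl identifiers to a gene name table, which named 48058 of them. All 10 members were found, and all 10 were among the 17479 genes that passed the filter on low counts, each with at least 218 reads in every library. Bulk RNA-seq libraries of liver tumours from C57BL/6 mice were compared between 2 groups of 2. The AKK group (AKK 1 and AKK 2) had received 5000000000 colony-forming units of Akkermansia muciniphila by mouth. The control group (PBS 1 and PBS 2) had received phosphate-buffered saline. Feeding began 2 weeks before a methionine- and choline-deficient (MCD) diet and went on through the 2 weeks of that diet. It stopped for 6 days after surgery and was then taken up again. Both groups shared the fatty-liver diet and the tumour itself, which grew from luciferase-labelled cells of RIL-175, a mouse hepatoma line, placed in the liver, so the tumours are those of 1 transplanted line and not ones that arose in the animal. The labels give neither age nor sex, and they call the libraries of a group biological replicates without saying that each came from its own mouse. P-values therefore measure the spread between these libraries only.

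Interferon gamma binds its receptor (Ifngr1 and Ifngr2), the kinases Jak1 and Jak2 pass the signal on, and the transcription factor Irf1 takes part in turning on GBP and IRG genes. Type I interferons act on many of the same genes through a receptor of their own. GBPs are large GTPases that assemble on the membranes of vacuoles that hold microbes and on bacteria themselves, and in mouse macrophages they help bring bacterial lipopolysaccharide to caspase-11, the product of Casp4. Among the IRGs, Irgm1, Irgm2 and Igtp (also called Irgm3) sit on the cell's own membranes and hold the effector IRGs inactive there, while Iigp1 (also called Irga6) is an effector that is loaded onto vacuoles. In tumours these genes are widely read as a trace of interferon acting on tumour, stromal or immune cells.

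The stretches of promoter shown next are given because the members moved together across the 4 libraries and because these genes are textbook targets of interferon-activated factors. The RefSeq promoter table (GRCm38.p6, from 250 bases before to 50 bases after a start site) held 7 of the 10 members, namely Gbp2, Gbp3, Gbp5, Gbp7, Igtp, Irgm1 and Irgm2. Each was searched on both strands for GAAA, any 2 bases and GAAA again, the core letters of an interferon-stimulated response element (ISRE), to which Irf factors bind, and for TTCNNNGAA, the letters of a gamma-activated site (GAS), an element of genes that interferon gamma induces. The 2 motifs did not overlap each other in any of the 7 windows. No source used here gives the build of the count tables, so the coordinates belong to the RefSeq table alone. The stretches are Gbp2 chr3:142620564-142620653 on the plus strand, Gbp3 chr3:142559959-142560043 (plus), Gbp5 chr3:142496729-142496818 (plus) and Gbp7 chr3:142530190-142530332 (plus). Those of the IRG members are Igtp chr11:58199471-58199555 (plus), Irgm2 chr11:58214862-58214962 (plus) and Irgm1 chr11:48871421-48871490 (minus). All end before the start site, read 5′ to 3′ along the gene's strand, and carry the ISRE or GAS letters in capitals.
Gbp2: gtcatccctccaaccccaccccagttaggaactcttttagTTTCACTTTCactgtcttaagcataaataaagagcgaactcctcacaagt
Gbp3: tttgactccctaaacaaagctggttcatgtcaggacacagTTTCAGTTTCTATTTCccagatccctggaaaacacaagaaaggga
Gbp5: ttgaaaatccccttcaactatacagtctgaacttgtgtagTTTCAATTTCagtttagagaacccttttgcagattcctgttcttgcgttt
Gbp7: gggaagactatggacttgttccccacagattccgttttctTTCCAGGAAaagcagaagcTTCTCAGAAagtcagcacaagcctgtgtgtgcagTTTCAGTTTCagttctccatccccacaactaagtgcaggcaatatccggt
Igtp: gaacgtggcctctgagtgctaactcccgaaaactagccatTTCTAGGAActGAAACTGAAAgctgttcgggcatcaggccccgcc
Irgm2: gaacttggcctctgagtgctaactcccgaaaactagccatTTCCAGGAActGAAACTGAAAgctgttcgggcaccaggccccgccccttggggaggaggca
Irgm1: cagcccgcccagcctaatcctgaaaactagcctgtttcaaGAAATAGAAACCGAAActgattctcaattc

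ISRE letters stood in the windows of all 7 members, against 3.44% of the 32851 windows in the table. Gbp3 and Irgm1 each held 2 such matches, which overlap each other. GAS letters stood in 4 of the 7 windows, those of Gbp5, Gbp7, Igtp and Irgm2, against 8.3% of all windows, and the 2 GAS matches of Gbp5 lie outside the stretch printed. The 250 bases before the start sites of the neighbours Igtp and Irgm2 were 68.1% identical over their alignment, against 41.2 to 51.1% for the other 20 pairs of these members. Among 11684 genes past the filter with a window, 11.9% of the 445 with ISRE letters had at least 2-fold more CPM in PBS 2 than in PBS 1, against 8.7% of the 988 with GAS letters and 6.15% of all 11684, and members are part of each count. A match describes letters only, and binding was not measured.

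The 10 GTPase genes were high in 1 PBS tumour and low in the other, and both AKK tumours lay near or a little above the low one. Summed over the members, AKK 1 and AKK 2 held 468 and 493 CPM (reads scaled to a common library size by the TMM method), against 330 in PBS 1 and 1846 in PBS 2. PBS 2 thus held 3.95 and 3.75 times the level of AKK 1 and AKK 2 and 5.59 times that of PBS 1. PBS 2 was the highest library for 10 of 10 members, where 22.0% of all tested genes had their highest value there. PBS 2 was highest and PBS 1 lowest at once for 9 of 10, against 4.82% of all tested genes. Both AKK values lay between the PBS values for 9 of 10 members, against 9.39% of all tested genes. Gbp2 was the exception, since its AKK 1 value was marginally under that of PBS 1, and under upper-quartile scaling or with unstranded counts it joined the other 9. The members were chosen with such values of these data known, so these counts are a description. In bulk tissue, fewer cells of a type and less RNA per cell cannot be told apart.

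**Figure D1:**
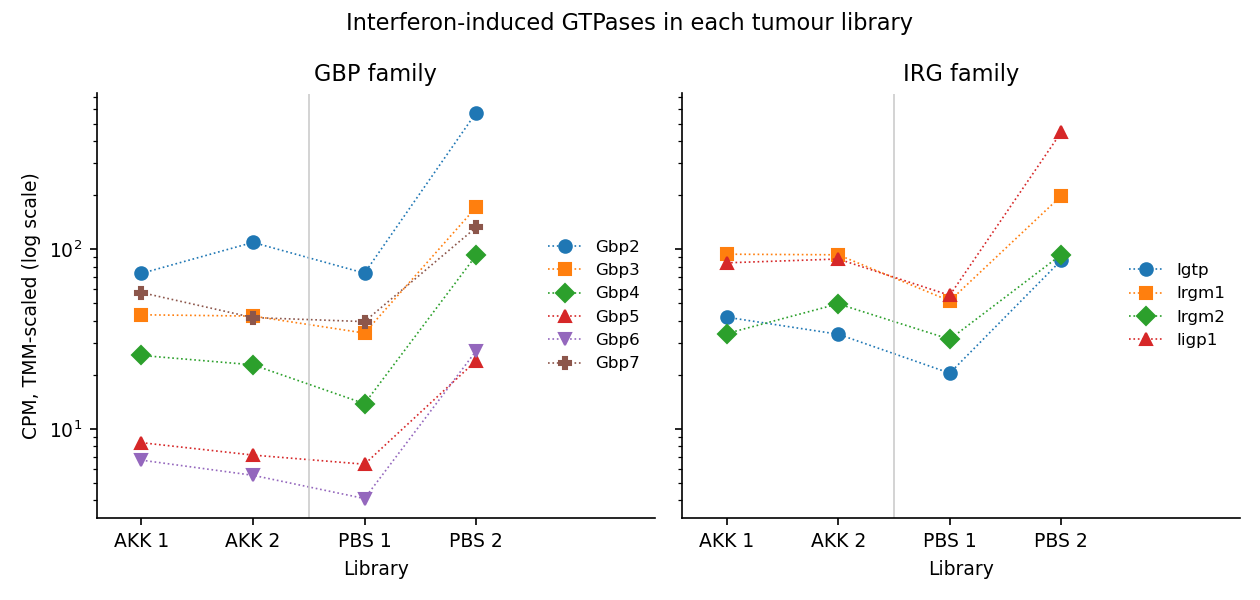
Level of each member in the 4 libraries, in TMM-scaled CPM on a log axis, with the GBP family on the left panel and the IRG family on the right; each point is 1 library and dotted lines only join the points of a gene. All 10 genes peak in PBS 2, and the AKK 1, AKK 2 and PBS 1 points lie below, with PBS 1 lowest for every gene but Gbp2.

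Gbp2, which is attached to membranes by a lipid anchor and gathers on vacuoles of Toxoplasma, read 73.3 and 109 CPM in AKK 1 and AKK 2, against 73.5 and 574 CPM in PBS 1 and PBS 2. AKK 1 and PBS 1 were level, AKK 2 was somewhat higher, and PBS 2 stood far above all. As group means Gbp2 stood at 91.2 ± 25.3 CPM in AKK tumours and 324 ± 354 CPM in PBS tumours (SD, n = 2 each). Gbp3, its neighbour in the same gene block, read 43.1 and 42.4 CPM in AKK tumours, against 34.1 and 171 CPM in PBS tumours. Gbp5, reported to promote inflammasome assembly in mouse macrophages, read 8.37 and 7.14 CPM in AKK tumours, against 6.35 and 23.9 CPM in PBS tumours. Gbp7, linked in mouse macrophages to assembly of the NADPH oxidase on vacuoles, read 57.3 and 41.6 CPM in AKK tumours, against 39.5 and 132 CPM in PBS tumours. In Gbp3, Gbp5 and Gbp7 the order was the same, with PBS 1 lowest, the AKK pair just above it and PBS 2 on its own. Gbp4 and Gbp6 belong to a second block, next to Gbp8, Gbp9, Gbp10 and Gbp11 in the RefSeq gene table. Gbp4 read 25.6 and 22.7 CPM in AKK tumours, against 13.8 and 92.2 CPM in PBS tumours. Gbp6 read 6.69 and 5.51 CPM in AKK tumours, against 4.09 and 27.1 CPM in PBS tumours. The groups overlapped for every GBP member. Gbp6 is less certain than the rest, because 59% of the 151-base stretches in its GENCODE M21 transcripts also occur in those of Gbp10 or of the overlapping gene Gm43302, and tables of this layout drop reads that map to more than 1 place. For Gbp7 that share was 8.76% (with Gm43802), and for the other 8 members it was at most 0.693%.

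The IRG members followed the same order, with PBS 1 lowest and PBS 2 highest in each. Irgm1, a regulator that is also tied to autophagy, read 93.7 and 93.0 CPM in AKK 1 and AKK 2, against 51.5 and 198 CPM in PBS 1 and PBS 2. Igtp read 41.8 and 33.6 CPM in AKK tumours, against 20.4 and 86.8 CPM in PBS tumours. Irgm2 read 33.9 and 49.6 CPM in AKK tumours, against 31.5 and 93.2 CPM in PBS tumours. For Irgm1 and Igtp the AKK values sat clearly above PBS 1 and at 1.84-fold (Igtp) and 1.81-fold (Irgm1) its level on average, while Irgm2 in AKK 1 was barely above PBS 1. The effector Iigp1 read 83.9 and 88.1 CPM in AKK tumours, against 55.3 and 448 CPM in PBS tumours. Its group means were 86.0 ± 2.94 CPM in AKK tumours and 252 ± 278 CPM in PBS tumours (SD, n = 2 each). Set against each other per length, Iigp1 was a little under Irgm1 in both AKK tumours and above it in both PBS tumours. Per kilobase of annotated exon (RPKM, with GENCODE M21 exon lengths), Irgm1 stood at 16.1 and 16 in AKK tumours, against 8.87 and 34.1 in PBS tumours. On the same scale Iigp1 stood at 14.4 and 15.1 in AKK tumours, against 9.49 and 76.9 in PBS tumours. By mean RPKM over the 4 libraries the order of the levels was Gbp2 (82.5), Iigp1 (29.0), Igtp (22.6), Gbp3 (22.3), Irgm1 (18.8), Irgm2 (14.1), Gbp7 (12.0), Gbp4 (5.15), Gbp6 (1.82) and Gbp5 (1.72). The ranges over the 4 libraries overlapped for every pair of neighbours in this order. Compared within each library, Gbp2 was above Iigp1, Irgm1 above Irgm2, Gbp7 above Gbp4 and Gbp4 above Gbp6 in all 4. The other neighbours changed order between libraries.

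The question of the comparison is whether feeding Akkermansia changed these genes, and 0 of 10 members passed. The quasi-likelihood test of edgeR across 17479 genes gave adjusted p-values (Benjamini-Hochberg) of 0.375 to 0.742, where 0.00572% of all genes, the fibrinogen gene Fgb alone, passed 0.05. At an unadjusted p under 0.05 edgeR also gave 0 of 10, against 15.3% of all genes. DESeq2 called 0 of 10, against 5.02% of all genes, and limma-voom called 0 of 10 and 0 of all 17479 genes. All 10 fitted log2 fold changes (AKK minus PBS) were negative, as were 48.2% over all genes, with a median of -1.05 over the members and 0.02 over all genes tested. The size ran from -0.42 (SE 0.57, adjusted p = 0.742) for Irgm1 to -1.83 (SE 0.87, adjusted p = 0.375) for Gbp2. For none of the 10 did the groups separate, whereas the AKK and PBS values did not overlap in 51.4% of all genes. With 2 libraries against 2, an exact permutation test of a single gene cannot go below p = 0.333.

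The spread within PBS was larger than the difference between the groups for all 10 members. The gap between PBS 2 and PBS 1 in log2 CPM exceeded the gap between the group means in 10 of 10 members, against 41.4% of all genes. For the 9 members with both AKK values between the PBS values, this follows from that order and is no separate result. The choice of members was also made with the spread within PBS known, so the count is a description. The trait was not particular to the members. Of lists described below, it held for 26 of 27 interferon gamma targets and 20 of 28 type I targets. It held for 16 of 19 genes in the list of other GBP, IRG and large interferon-inducible GTPases. It also held for 11 of 13 inflammasome genes and 11 of 19 receptor, kinase and transcription factor genes, but for 6 of 13 autophagy and 1 of 5 prenylation genes. For Gbp2 the difference of group means was -1.20 and PBS 2 lay 2.96 above PBS 1. For Iigp1 these log2 values were -0.87 and 3.02, and for Irgm1 they were -0.11 and 1.94. Between the AKK tumours the log2 difference (AKK 1 minus AKK 2) stayed between -0.57 (Gbp2) and 0.46 (Gbp7). None of the 10 differed 2-fold between the AKK libraries, but only 15.9% of all genes did, so this count does not set the members apart. In each of these genes the PBS tumours lay farther apart than the AKK tumours.

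**Figure D2:**
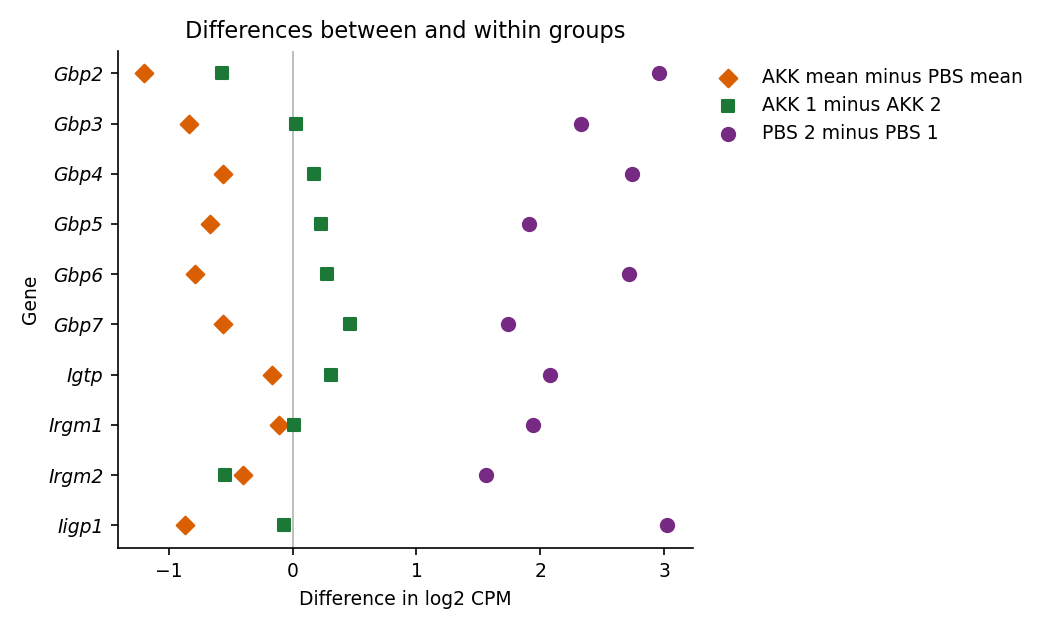
Differences in log2 CPM for each member: AKK mean minus PBS mean (orange diamonds), AKK 1 minus AKK 2 (green squares) and PBS 2 minus PBS 1 (purple circles). The circles lie between 1.56 and 3.02, farther from 0 than the diamonds (-1.20 to -0.11) in every row.

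The ratio of PBS 2 to PBS 1 was 2 or more for 10 of 10 members, against 7.28% of all genes, and it differed among the members. Because this spread was known when the members were chosen, the count and the ranks below only describe them. With 1 library on each side this ratio has no test, and its intervals (95%, exact, from the read counts) cover counting error only. Iigp1 had the largest ratio of the members, 8.11-fold (7.80 to 8.43), and the 37th largest log2 gap of all 17479 genes. Gbp2 followed at 7.81-fold (7.55 to 8.08), and Gbp4 and Gbp6 stood at 6.68-fold and 6.64-fold. Gbp3 stood at 5.02-fold, Igtp at 4.24-fold, Irgm1 at 3.84-fold, Gbp5 at 3.77-fold and Gbp7 at 3.34-fold. Irgm2 had the smallest ratio, 2.96-fold (2.80 to 3.13), and the 452nd largest log2 gap. The 3 regulatory IRGs thus lay between 2.96-fold and 4.24-fold, under the effector Iigp1. Within the block of Gbp2, Gbp3, Gbp5 and Gbp7 the ratio ran from 3.34-fold to 7.81-fold, and the neighbours Igtp and Irgm2 had ratios of 4.24-fold and 2.96-fold.

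Which PBS tumour served as the control set the direction. For the 9 members with both AKK values between the PBS values, the opposite signs follow from that order and add no new result. Set against PBS 2 alone, with PBS 1 left out, all 10 members were lower in AKK, with log2 fold changes of -2.65 (Gbp2) to -1.09 (Irgm1) and a median of -1.78. In that fit edgeR called 5 members lower in AKK, against 0.698% of all genes lower. They were Gbp2 (log2 fold change -2.65), Iigp1 (-2.38), Gbp6 (-2.16), Gbp3 (-2.00) and Gbp4 (-1.94). The members were chosen with the spread within PBS known, so a lower level against PBS 2 alone follows from that choice. The spread in that fit came from the AKK libraries alone, so its calls are not read as results. Set against PBS 1 alone, with PBS 2 left out, all 10 had positive log2 fold changes, from 0.26 (Gbp5) to 0.85 (Igtp) with a median of 0.46, and 0 of 10 passed (adjusted p = 0.394 to 0.903), against 0.527% of all genes called higher in AKK. At an unadjusted p under 0.05 edgeR gave 10 of 10 members without PBS 1, against 10.5% of all genes, and 2 of 10 without PBS 2, against 11.5%. In both fits the lone PBS library is assumed to vary like the AKK libraries, so these counts, too, are not read as results. Relative to PBS 1, Gbp2, Gbp3, Gbp5 and Gbp7, which share a block, had log2 values of 0.26 to 0.30, while Gbp4 and Gbp6 of the other block had 0.78 and 0.55, and the IRG members had 0.85 (Igtp), 0.83 (Irgm1), 0.61 (Iigp1) and 0.38 (Irgm2).

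**Figure D3:**
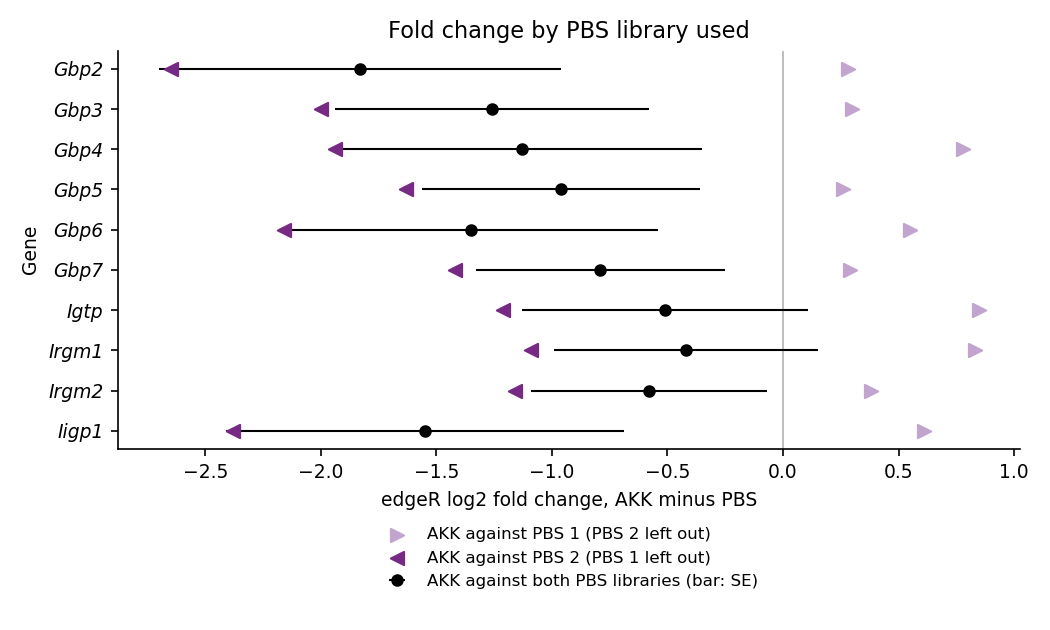
edgeR log2 fold change (AKK minus PBS) of each member with both PBS libraries (black circles, bars show the SE), with PBS 1 left out (dark triangles) and with PBS 2 left out (light triangles). The dark triangles all lie below 0, from -2.65 to -1.09, and the light ones all above 0, from 0.26 to 0.85.

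Most genes in a list of other GBP, IRG and large interferon-inducible GTPases also had their highest level in PBS 2. Of 25 such symbols, 19 were measured and kept; edgeR called 0 of 19 in either direction, as did DESeq2, with 2 lower at an unadjusted p under 0.05, and their median log2 fold change was -1.03. PBS 2 was the highest library for 16 of the 19, against 22.0% of all genes. The ratio of PBS 2 to PBS 1 was 2 or more for 15, against 7.28% of all genes. Tgtp2, an effector IRG also called Irgb6, read 18.4 and 29.8 CPM in AKK tumours, against 16.9 and 89.0 CPM in PBS tumours, and its near-copy Tgtp1 read 17.7 and 28.9 against 12.9 and 86.5 CPM. These copies share 68.3% (Tgtp2) and 64.8% (Tgtp1) of their 151-base stretches with other genes, so their split is uncertain. Gm12250, the effector Irgb10, read 3.82 and 5.41 CPM in AKK tumours, against 3.67 and 20.3 CPM in PBS tumours. Gbp9 read 23.3 and 40.5 CPM in AKK tumours, against 30.3 and 89.1 CPM in PBS tumours, and Gbp2b 1.08 and 1.22 against 1.11 and 4.10 CPM. Gbp10, whose stretches are 66.5% shared, had 16 and 6 reads in AKK tumours, against 3 and 67 reads in PBS tumours. Mx2 read 3.80 and 1.68 CPM in AKK tumours, against 2.32 and 6.29 CPM in PBS tumours. The 3 genes of the list that were not highest in PBS 2 were Gbp8, Mx1 and Irgq. Gbp8, which adjoins Gbp9 and Gbp4, read 15.6 and 8.05 CPM in AKK tumours, against 8.28 and 14.1 CPM in PBS tumours. Mx1, a dynamin-like GTPase that type I interferon induces, read 11.5 and 4.62 CPM in AKK tumours, against 18.5 and 14.4 CPM in PBS tumours (log2 fold change -1.03 and adjusted p = 0.355 in edgeR). Irgq read 33.6 and 68.5 CPM in AKK tumours, against 68.1 and 50.2 CPM in PBS tumours. The 2 genes of the list with the smallest p also missed the threshold. They were 9930111J21Rik1, with 3 and 10 reads in AKK tumours against 21 and 65 in PBS tumours (adjusted p = 0.253 in edgeR), and F830016B08Rik, at 1.29 and 0.788 CPM against 1.41 and 22.8 CPM (0.286).

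None of the upstream genes listed passed the edgeR test. Ifng itself was scarce, with 23 and 16 reads in AKK tumours, against 3 and 20 reads in PBS tumours, so PBS 1 had fewest and the AKK tumours were close to PBS 2. Of the 5 ligand and cytokine genes kept, edgeR and DESeq2 called 0 and 0 had an unadjusted p under 0.05. Those with the smallest p were Tnf, at 1.10 and 0.291 CPM in AKK tumours against 0.0937 and 0.442 CPM in PBS tumours (adjusted p = 0.509 in edgeR), and Il15, at 5.25 and 3.31 against 3.84 and 2.36 CPM (0.638). Among the listed interferon genes of other types, Ifnb1, Ifna2 and Ifnk had at most 1 read in any library, and Ifna1, Ifna4, Ifnl2 and Ifnl3 had 0 in all 4, which allows up to 0.0514 to 0.0631 CPM. The receptor chains Ifngr1 (72.9 and 73.2 against 51.3 and 65.9 CPM) and Ifngr2 (62.8 and 66.9 against 50.1 and 53.4 CPM) were a little higher in both AKK tumours than in both PBS tumours, with edgeR adjusted p of 0.469 and 0.414. Irf1 read 102 and 101 CPM in AKK tumours, against 56.1 and 128 CPM in PBS tumours. It was lowest in PBS 1 and highest in PBS 2, at 2.29-fold the PBS 1 level, with both AKK tumours between them. In the whole list of 19 receptor, kinase and transcription factor genes edgeR and DESeq2 called 0, 0 had an unadjusted p under 0.05, the median log2 fold change was 0.08, and 3 of 19 had a ratio of PBS 2 to PBS 1 of 2 or more, against 7.28% of all genes. Jak1 (112 and 156 against 184 and 206 CPM) was lower in both AKK tumours (adjusted p = 0.341), and Ifnar2, with a log2 fold change of 0.60, was higher in both (0.336), and neither passed in edgeR. Jak2 read 101 and 192 CPM in AKK tumours, against 111 and 172 CPM in PBS tumours, and Socs1, a feedback inhibitor of the kinases, 6.92 and 3.39 against 3.06 and 5.61 CPM.

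Other interferon targets were highest in PBS 2 or in AKK 1 in most cases. Among 27 measured targets of interferon gamma, 15 had a PBS 2 to PBS 1 ratio of 2 or more (median ratio 2.26), against 7.28% of all genes. The highest library was PBS 2 for 13 of the 27, against 22.0% of all genes, and AKK 1 for another 13. Their median log2 fold change was 0.11, and edgeR called 0 of 27 in either direction, as did DESeq2, with 1 higher and 1 lower at an unadjusted p under 0.05. Ido1, which breaks down tryptophan, read 111 and 48.2 CPM in AKK tumours, against 21.3 and 103 CPM in PBS tumours. It was chosen after its values were seen. AKK 1 was above PBS 2 for Ido1, which did not occur for any of the 10 GTPases. The chemokine genes Cxcl9 (29.9 and 21.8 against 14.6 and 66.3 CPM) and Cxcl10 (14 and 7.26 against 6.47 and 21 CPM) had PBS 2 highest, like the members. Nlrc5, the activator of MHC class I genes, read 29.9 and 21.6 CPM in AKK tumours, against 34.3 and 72.4 CPM in PBS tumours (log2 fold change -1.05, adjusted p = 0.298 in edgeR), and Ciita, its MHC class II counterpart, 3.40 and 3.49 against 3.52 and 6.14 CPM. Psme2, a subunit of the proteasome activator, had the next smallest p, with 129 and 87.5 CPM in AKK tumours against 51.7 and 77.0 CPM in PBS tumours (adjusted p = 0.312 in edgeR). Among type I targets, 17 of 28 were highest in PBS 2 and 9 in AKK 1. The ratio of PBS 2 to PBS 1 was 2 or more for 19 of these 28, with a median ratio of 2.67. Their median log2 fold change was -0.20 and 0 were called by edgeR or DESeq2, with 1 higher and 1 lower at an unadjusted p under 0.05. Their smallest p-values were those of Eif2ak2, the RNA-sensing kinase PKR, at 43.1 and 49.1 CPM in AKK tumours against 59.8 and 80.4 CPM in PBS tumours (adjusted p = 0.294 in edgeR), and of Oas2, at 26.3 and 7.45 against 2.34 and 6.41 CPM (0.306). Whether these lists differ from the members was not tested.

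**Figure D4:**
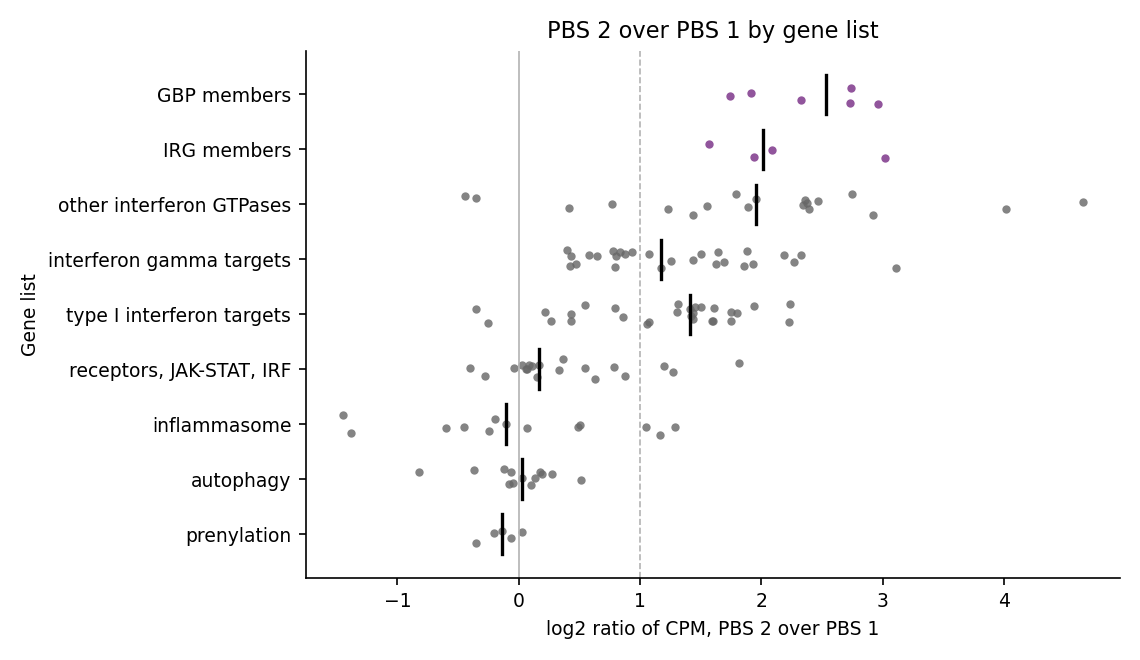
log2 ratio of CPM in PBS 2 over PBS 1 for genes past the filter, by gene list; each point is a gene, black bars are list medians, and the dashed line marks a 2-fold ratio. All GBP and IRG members lie right of the dashed line, and the autophagy and prenylation genes lie around 0.

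Genes of the machinery that GBP and IRG proteins work with had a median PBS 2 to PBS 1 ratio of 0.929 (inflammasome), 1.02 (autophagy) and 0.908 (prenylation), against 4.63 for the members and 1.00 for all genes. Of 13 inflammasome genes 3 had a ratio of PBS 2 to PBS 1 of 2 or more, against 7.28% of all genes, while Il1b (0.366) and Mefv (0.383) had ratios well under 1. Among the 3 was Casp4, at 9.91 and 6.08 CPM in AKK tumours, against 5.60 and 12.6 CPM in PBS tumours. Gsdmd, which forms the pore of pyroptosis downstream of caspase-11, read 76.2 and 83.9 CPM in AKK tumours, against 38.6 and 80.1 CPM in PBS tumours, so PBS 1 alone was low. Naip5 (9.20 and 23.9 against 9.09 and 9.55 CPM) and Il1b (17.0 and 14.4 against 13.4 and 4.90 CPM) had the smallest p of that list, with adjusted p of 0.433 and 0.469 in edgeR. Gabarap (277 and 243 against 180 and 203 CPM) and Atg7 (17.0 and 18.2 against 21.4 and 23.6 CPM) had the smallest p among the autophagy genes, with adjusted p of 0.363 and 0.446 in edgeR. None of the 13 autophagy genes and none of the 5 prenylation genes had a ratio of 2 or more. Prenylation enzymes attach the lipid anchor of Gbp2 and Gbp5. Over the 3 lists edgeR called 0 genes, and DESeq2 called 1, Pggt1b, the catalytic subunit of the type I geranylgeranyl transferase. Pggt1b read 10.8 and 15.6 CPM in AKK tumours, against 27.9 and 25.4 CPM in PBS tumours, with a log2 fold change of -1.01 (SE 0.26) and an adjusted p of 0.216 in edgeR and 0.0292 in DESeq2. Icmt, which methylates prenylated proteins, read 31 and 48.1 CPM in AKK tumours, against 76.0 and 59.7 CPM in PBS tumours (adjusted p = 0.287 in edgeR). At an unadjusted p under 0.05 edgeR gave 0 inflammasome, 0 autophagy and 3 prenylation genes, of which 1 was higher and 2 were lower in AKK. The median log2 fold changes of the lists were 0.09, 0.00 and -0.12.

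Genes outside the family with the most similar profile were ranked by the distance over the 4 libraries, on log2(CPM + 0.5) after subtracting each gene's mean, from the mean of the members. That mean profile was -0.29 and -0.32 in AKK 1 and AKK 2, against -0.83 and 1.44 in PBS 1 and PBS 2. Among the 11229 protein-coding genes whose log2 CPM averaged 1 or more, the nearest was Slc7a11 (distance 0.199), the cystine transporter, at 35.5 and 33.4 CPM in AKK tumours, against 28.2 and 119 CPM in PBS tumours. Next came Cdsn (0.318), the serpin Serpina3f (0.397), Cfap69 (0.417), the chemokine gene Cxcl9 (0.450), the tissue factor gene F3 (0.471), Serpina3g (0.471), Diras2 (0.472), Lgals4 (0.481) and Sdcbp2 (0.508). F3, which starts coagulation, read 160 and 120 CPM in AKK tumours, against 110 and 367 CPM in PBS tumours. The members' own distances ran from 0.220 (Gbp3) to 0.869 (Gbp2), so 4 of them lay farther from their mean than the last of these genes. Of the 10 genes named, Cxcl9 and Serpina3g also stand in the list of interferon gamma targets.

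The libraries held 48912489 to 59027227 reads on genes. Markers of cell types moved between the libraries too. Markers of T and CD8 cells were highest in AKK 1 in 8 of 8, with summed CPM of 9.01 to 16.6 in AKK tumours and 4.57 to 8.94 in PBS tumours, PBS 1 being lowest. Cytotoxic and NK cell markers summed to 16.5 to 16.8 CPM in AKK tumours and 12.9 to 18.4 CPM in PBS tumours, with 3 of 8 kept markers highest in PBS 2, and Ncr1 had at most 5 reads in any library. Gzmb was among those 3, at 3.11 and 1.25 CPM in AKK tumours, against 1.63 and 4.10 CPM in PBS tumours, as was Prf1, at 1.15 and 0.976 against 1.54 and 2.38 CPM. Cd8a read 3.93 and 2.62 CPM in AKK tumours, against 0.956 and 3.26 CPM in PBS tumours, and Nkg7 1.42 and 0.736 against 0.281 and 0.778 CPM. Macrophage markers were highest in PBS 1 in 7 of 8 and in PBS 2 in 0 of 8, with sums of 545 to 548 CPM in AKK tumours and 628 to 799 CPM in PBS tumours. Kupffer cell markers (5 of 5 highest in AKK 1) summed to 2.38 to 18.2 CPM in AKK tumours and 0.0210 to 0.337 CPM in PBS tumours, where Clec4f, Cd5l, Timd4 and Marco had 0 reads in PBS 2. Hepatocyte markers were highest in AKK 1 in 9 of 10, with sums of 616 to 662 CPM in AKK tumours and 242 to 587 CPM in PBS tumours. Most of the PBS sums was Apob, and the other 9 markers reached at most 0.988 CPM (Alb) in PBS tumours. Apob, at 164 and 468 CPM in AKK 1 and AKK 2, also made up most of the AKK 2 sum. Alb read 156 CPM in AKK 1 and 25.4 CPM in AKK 2, so the near-equal AKK sums hide a difference between these libraries. Skeletal muscle markers summed to 0.407 to 0.497 CPM in AKK tumours and to 197 and 4.50 CPM in PBS 1 and PBS 2, and fibroblast markers to 923 to 1427 CPM in AKK tumours and to 2079 and 743 CPM in PBS 1 and PBS 2, with 7 of 7 highest in PBS 1. Endothelial markers, 5 of 6 highest in PBS 1, summed to 25.2 to 26.9 CPM in AKK tumours and 55.0 to 80.5 CPM in PBS tumours. B and plasma cell markers, 4 of 4 kept being highest in AKK 1, summed to 24.7 to 60.4 CPM in AKK tumours and 5.30 to 5.45 CPM in PBS tumours. Neutrophil markers, also 4 of 4 kept highest in AKK 1, summed to 6.52 to 11.7 CPM in AKK tumours and 3.97 to 6.04 CPM in PBS tumours, and of them Ly6g had 0 reads in all 4. The part of any of these cell types in the GTPase result was not tested. The table names are also built differently for AKK than for PBS. Should that reflect groups of animals handled apart, the handling and the Akkermansia feeding cannot be told apart.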

How the data were processed

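Paired-end bulk RNA-seq (151 bases) was made from liver tumours of C57BL/6 mice, in 2 AKK and 2 PBS libraries. The deposited values are raw counts of reads per gene from STAR 2.5.2, per the submitters' processing notes, which also list RSEM 1.2.31. No version of the genome build or annotation is known: not given in the sources used here. The own-strand counts were used, since they held 95.4 to 96.2% of the reads assigned on either strand. The 4 summary rows, equal to 27.6 to 31.4% of each table's total, were left out of library sizes. The members and lists were chosen with earlier results of these data known. Counts were filtered with filterByExpr, scaled by TMM and tested with edgeR 4.0.16 (quasi-likelihood, Benjamini-Hochberg threshold 0.05) in R 4.3.3; fold changes use a prior count of 0.125 and log2 CPM a prior count of 2. DESeq2 1.42.0, limma-voom (limma 3.58.1), other scalings and filters, unstranded counts, a replicate block and leaving out each library were alternatives. The test was checked on simulated data. The genes named are all members, the 10 protein-coding genes nearest to their mean profile, and from each pathway list those called or, with none, the 2 with the smallest p, plus a fixed set of pathway and cytotoxic genes, of which 1 is not reported here. Gbp8, Gm12250, Ido1 and the other marker genes named were chosen after their values were seen. RPKM used exon lengths of GENCODE M21, matched by gene identifier. Reads without molecular identifiers are not independent molecules, so intervals and floors (3 reads) cover counting error only.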

Additional observations from a re-analysis of the deposited data

How the results depend on the processing

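edgeR called 1 gene of all tested. It called 3 under upper-quartile scaling, 631 with no filter on low counts and 4 in its newer form, DESeq2 called 878 and limma-voom 0. With each library left out in turn the count ran from 0 to 324, being 0 without AKK 1, 0 without AKK 2, 279 without PBS 1 and 324 without PBS 2. Members called were 0 in each of these fits except without PBS 1, where 5 were called (0 to 5). The median member log2 fold change was -1.05, -0.60 in limma-voom, and -1.78 to 0.46 with a library left out, the positive value being that without PBS 2. Leaving out PBS 1 or PBS 2 gave the lowest and highest log2 fold change of each member: -2.65 and 0.28 for Gbp2, -2.00 and 0.30 for Gbp3, -1.94 and 0.78 for Gbp4, -1.63 and 0.26 for Gbp5, -2.16 and 0.55 for Gbp6, -1.42 and 0.29 for Gbp7, -1.21 and 0.85 for Igtp, -1.09 and 0.83 for Irgm1, -1.16 and 0.38 for Irgm2, and -2.38 and 0.61 for Iigp1. Of 130 member values over 13 alternative fits, 115 kept direction and side of the threshold, 5 newly passed it and 10 changed sign. The sign changes all came without PBS 2, and for 9 of 10 members they follow from AKK values lying between the PBS values. A fit that leaves 1 library in a group takes the spread from the other group alone. Its calls are therefore not read as results. The cause was not tested. With the replicate number as a block edgeR called 209 genes and 0 members (adjusted p 0.367 to 0.929), and the member median was -0.62. Same-numbered libraries did not deviate together (correlation -0.0153 across genes). That value rests on a single contrast in each group, so it cannot tell whether the numbers pair the samples. All 10 members kept a PBS difference larger than the group difference and a 2-fold PBS ratio under the 4 alternatives tried. The count of members with both AKK values between the PBS values was 9, and 10 under upper-quartile scaling and with unstranded counts, alternatives chosen after seeing the data. With 2 libraries a group, differences of the size seen within PBS limit what can be called.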
